A study of Sus scrofa with 22 samples.

Results

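miR-143 and miR-145 are 2 small RNAs cut from a pair of hairpins that lie side by side in the pig genome. Both were measured by small RNA sequencing in subcutaneous fat. Each hairpin can give a mature miRNA from either of its arms, so the members are miR-143-3p, miR-143-5p, miR-145-5p and miR-145-3p. They were chosen by name, as 4 of the 250 mature miRNA names in the count tables, and held 578 of the 8489 sequences counted. The samples came from female pigs of 6 months, of the Pietrain, Large White and Hampshire breeds, and the labels class each animal's subcutaneous fat as thick or thin. Thick fat was sequenced in 4 Pietrain, 4 Large White and 5 Hampshire libraries, and thin fat in 3, 4 and 2. No treatment or genetic change is given, and no other tissue was compared. The labels do not say whether samples were pooled or which libraries were prepared together, so p-values measure only the spread between these samples.

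A mature miRNA guides Argonaute proteins to messenger RNAs, mainly through bases 2 to 8 of its 5′ end, the seed, and lowers the output of those messages. In most tissues miR-143 and miR-145 are transcribed together as 1 precursor and are best known from smooth muscle, where they support the contractile state of vessel walls. They are also made in fibroblasts and other stromal cells, and miR-143 was among the first miRNAs linked to the maturation of cultured fat cells. In the RefSeq annotation of a later pig assembly, MIR143 and MIR145 are neighbours on the same chromosome with 0 genes starting between them. In bulk fat, fewer cells of a type and less miRNA per cell cannot be told apart.

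The most abundant sequence of each member is shown because its start fixes the seed and the forms described later are compared with it. In the breed means it took 33.4% to 38.9% of miR-143-3p reads, 33.2% to 40.5% of miR-143-5p, 58.4% to 65.2% of miR-145-5p and 31.9% to 46.3% of miR-145-3p. The capitals mark the seed, and the sequences are those counted in the deposited tables.
miR-143-3p: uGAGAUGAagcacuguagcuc
miR-143-5p: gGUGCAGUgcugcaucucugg
miR-145-5p: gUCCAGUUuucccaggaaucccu
miR-145-3p: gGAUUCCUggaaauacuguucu
The 4 seeds differ from one another, and 0 other names in the tables had any of these seeds in their most abundant sequence. miR-143-3p came in 449 sequences of 17 to 25 nt, miR-145-5p in 81, miR-143-5p in 31 and miR-145-3p in 17. Together they drew 3275389, 163331, 11345 and 7203 reads over the 22 libraries, in the same order of members. Library totals ran from 431542 to 3137757 reads. Counts are given as CPM, reads per 1000000 after TMM scaling between libraries.

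The main product of the locus was miR-143-3p, which ranked between 1 and 6 among all miRNAs of every library and was 1st in Pietrain thick replicate 1 and Large White thick replicate 1. In Pietrain thick fat it had 138897, 93794, 88734 and 57948 CPM, and in Pietrain thin fat 63951, 139001 and 89700. In Large White thick fat it had 192703, 67054, 63636 and 59851 CPM, and in thin fat 71477, 80058, 49347 and 73611. The Large White thick replicate 1 stood far above the other 7 libraries of its breed, and thick and thin fat overlapped in both breeds.

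In Hampshire thick fat miR-143-3p had 71636, 71944, 52477, 85567 and 109987 CPM, and in thin fat 217462 and 124380. On this scale both thin libraries lay above all 5 thick ones. As plain shares of reads they overlapped, with 9.89% in thin replicate 2 and 10.3% in thick replicate 5. Of the 172 names tested in Hampshire, 15 (8.72%) had every thick library below every thin one. The fitted log2 difference, thick minus thin, was −0.97 ± 0.35 (SE), and it did not pass edgeR's quasi-likelihood test after adjustment (adjusted p = 0.894, unadjusted p = 0.0254). In this comparison 0 of 172 names passed with edgeR, 5 (2.91%) had an unadjusted p under 0.05, and DESeq2 called 3 (1.74%).

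Its partner strand miR-143-5p was far rarer, between 151 and 678 CPM, and had reads in all 22 libraries too. On the log2 CPM scale the 2 arms were high in the same libraries (Pearson's r = 0.912, Spearman's rho = 0.849, n = 22, permutation p = 1e-05 for both, the smallest that 100000 resamples can give), and r was 0.849 without the 2 libraries farthest from the median of miR-143-3p. Within breeds r was 0.908 for the 7 Pietrain, 0.940 for the 8 Large White and 0.920 for the 7 Hampshire libraries (exact permutation p = 0.0048, 0.012 and 0.0024). Spearman's rho was 0.786, 0.738 and 0.964 in the same order (exact permutation p = 0.048, 0.046 and 0.0028). Without the 2 libraries of each breed farthest from its median of miR-143-3p, r was 0.821, 0.717 and 0.819. In Large White these included thick replicate 1.

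**Figure D1:**
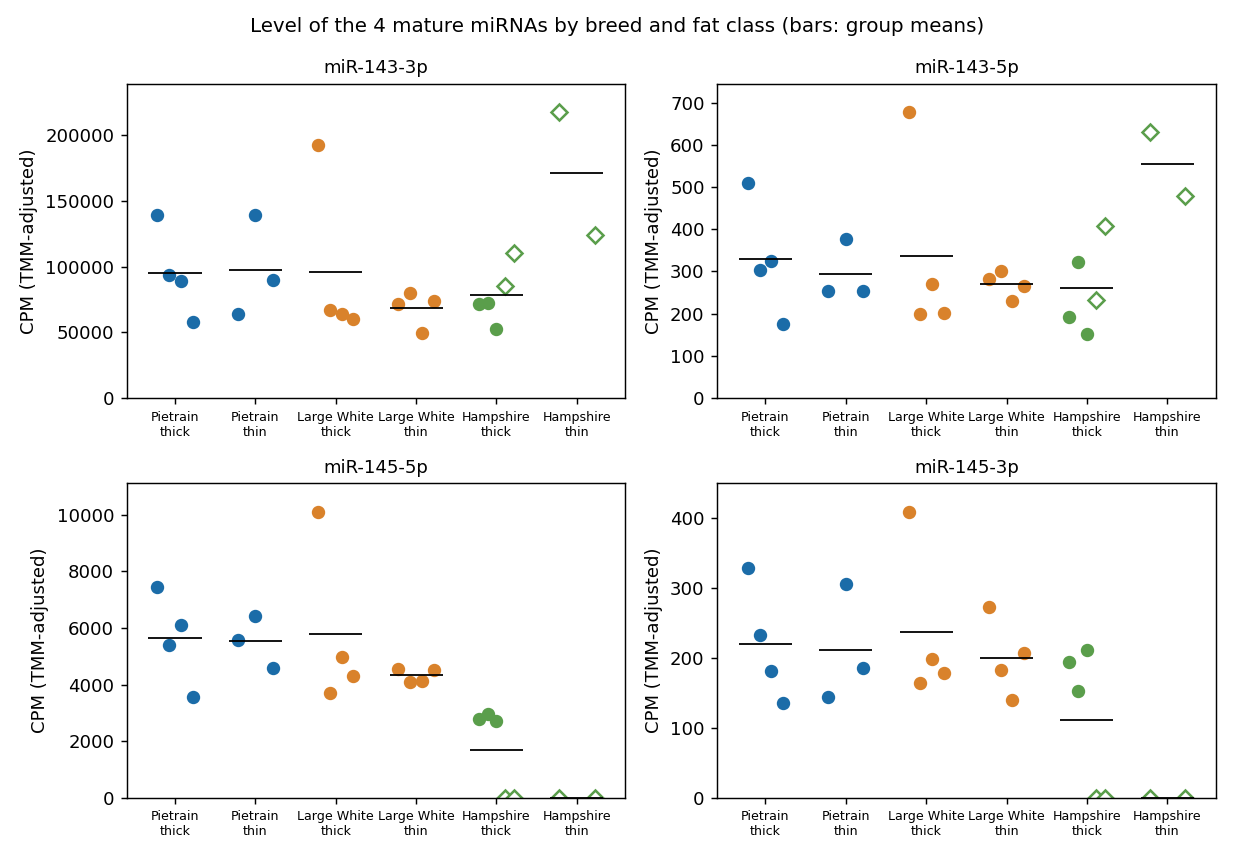
CPM of the 4 mature miRNAs in each library by breed and fat class, each panel from 0; black bars are group means and open diamonds the 4 Hampshire libraries in which both miR-145 arms were at 0. miR-145-5p and miR-145-3p lie at 0 in these 4 libraries, while both miR-143 arms have reads in all 22.

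miR-145 behaved differently. Its 5p arm, the main strand, had 7455, 5406, 6102 and 3575 CPM in Pietrain thick fat and 5582, 6440 and 4586 in thin fat. In Large White it had 10103, 3695, 4974 and 4322 CPM in thick fat and 4556, 4088, 4129 and 4525 in thin fat. In Hampshire only 3 thick libraries had reads of it, at 2796, 2962 and 2727 CPM. All 3 lay below each of the 15 Pietrain and Large White libraries, as did 14 of the 112 names compared in this way (12.5%).

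The other 4 Hampshire libraries, thick replicates 4 and 5 and thin replicates 1 and 2, were listed at 0 for every sequence of miR-145-5p and of miR-145-3p. At the lowest share seen in the 3 other Hampshire libraries, 0.267% of reads, these 4 should have held 2666 to 4141 reads of miR-145-5p. For miR-145-3p the same reckoning gives 158 to 245 reads. The smallest count above 0 in the tables is 6, so a 0 can stand for up to 5 reads. The 29 Hampshire sequences of miR-145-5p could together hide at most 145 reads in a library, and the 11 of miR-145-3p at most 55.

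No read with bases 4 to 15 of a miR-145 arm was found under another name. Over all 22 libraries, 2 names were at 0 in just these 4 libraries and had reads in every other one, and these were the 2 arms of miR-145. Names at 0 where at least 100 reads would be expected were not rare in these tables: such zeros touched 36 names, and a single library had 4 to 20 of them.

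The same 4 libraries held miR-143-3p at 85567 to 217462 CPM, each above the 3 Hampshire libraries with miR-145 reads, which held 52477 to 71944. This order was shared by 18 of the 172 names tested in Hampshire (10.5%), and the opposite order by 20 (11.6%). Their TMM factors, 0.759 and 0.795 in thin replicates 1 and 2 and 0.838 and 0.933 in thick replicates 4 and 5, were the lowest of the breed, so scaling raised their CPM. As plain shares of reads, miR-143-3p took 16.5%, 9.89%, 7.17% and 10.3% in these 4 (in the same order) and 6.84%, 7.46% and 5.66% in the other 3, and the groups overlapped.

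miR-205, an epithelial miRNA that was singled out after its values were seen, was listed above 0 only in these 4 of the 7 Hampshire libraries. It had 6 and 125 reads in thin fat and 48 and 30 in thick fat. The 6 is the smallest count above 0 and a 0 can stand for up to 5 reads of each sequence. The zeros in the other 3 libraries therefore do not show that miR-205 was absent. Of the 12 stromal miRNA names looked for beside the members, 8 were in the tables, and their summed level was 62214 to 85622 CPM in the 4 libraries with miR-145 at 0 and 22762, 38711 and 72007 in the other 3 Hampshire libraries. The lowest was thick replicate 3, in which miR-199ab-3p and miR-199b-5p were at 0, while the other 6 had 10800 to 38370 CPM of miR-199ab-3p. 2 of the 8, miR-214-3p and miR-214-5p, were at 0 in all 7 Hampshire libraries. The endothelial pair miR-126-3p and miR-126-5p summed to 44169 to 73143 CPM in the 4 libraries and 35325 to 42962 in the other 3. Among single names, 18 of the 172 tested in Hampshire (10.5%) had each of the 4 above each of the 3. The low TMM factors of the 4 libraries raised their CPM here too. The part of cell content in the zeros was not tested.

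**Figure D2:**
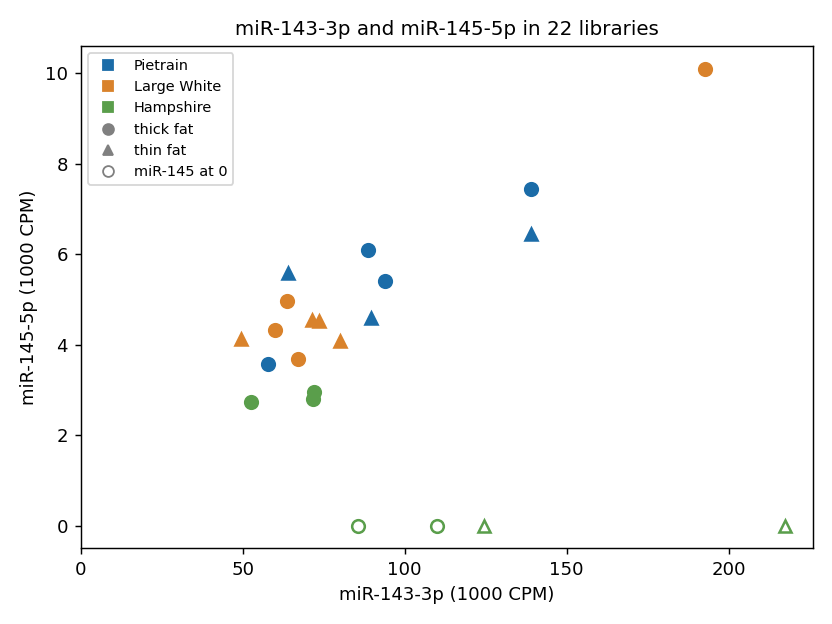
miR-145-5p against miR-143-3p, both in units of 1000 CPM, in the 22 libraries; colours are breeds, circles thick fat, triangles thin fat, and open symbols the 4 libraries with miR-145 at 0. The 4 open symbols lie on the axis at 85567 to 217462 CPM of miR-143-3p, and the 3 other Hampshire libraries are the lowest of the rest for miR-145-5p.

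In the 18 libraries with reads of both hairpins, miR-143-3p and miR-145-5p were correlated on the same scale (r = 0.793, rho = 0.657, permutation p = 0.00013 and 0.0039, adjusted over 6 pairs of members 0.00019 and 0.0075). Without the 2 libraries farthest from the median of miR-143-3p, r was 0.629. Within Pietrain r was 0.787 (n = 7, exact permutation p = 0.031), while rho was 0.679 (exact permutation p = 0.11). Without Pietrain thick replicate 1 and thin replicate 2, r was 0.563. Within Large White r was 0.900 (n = 8, exact permutation p = 0.057) and rho was 0.286 (exact permutation p = 0.5). There r was −0.192 without thick replicate 1 and thin replicate 3, so in Large White the relation rests on those libraries. Reads of miR-143-3p outnumbered those of miR-145-5p by a log2 ratio that averaged 4.07 ± 0.30 over the 7 Pietrain, 3.97 ± 0.27 over the 8 Large White and 4.52 ± 0.22 over the 3 Hampshire libraries (SD). Against Hampshire, neither difference passed the exact permutation test in thick fat (adjusted p = 0.114 for Pietrain and 0.206 for Large White, where 3 against 4 libraries cannot give a p below 0.0286).

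By Spearman correlation of CPM over the 22 libraries, the names most like miR-143-3p among 107 with reads in all were miR-143-5p (0.849), miR-27b-3p (0.788), miR-24-3p (0.695), let-7i-5p (0.640) and miR-218-5p (0.625). For miR-145-5p over its 18 libraries they were miR-143-5p (0.763), miR-140-3p (0.674), miR-143-3p (0.657), miR-28-3p (0.626) and miR-221-3p (0.606), of 111 candidates. These values describe likeness and share each library's depth and scaling.

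Thick and thin fat were compared first within breeds. In Pietrain the log2 differences, thick minus thin, were −0.03 ± 0.36 for miR-143-3p, 0.17 ± 0.37 for miR-143-5p, 0.03 ± 0.26 for miR-145-5p and 0.07 ± 0.39 for miR-145-3p (SE; edgeR adjusted p = 0.993 for each). The interval of the miR-143-3p difference ran from −0.88 to 0.82, so changes within that range were not resolved. edgeR called 0 of 161 names, with 4 (2.48%) at an unadjusted p under 0.05, and DESeq2 called 1 (0.621%).

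In Large White the differences were 0.51 ± 0.42, 0.34 ± 0.41, 0.44 ± 0.31 and 0.26 ± 0.35 for the same 4 members (SE; edgeR adjusted p = 0.958 for each). These positive values rest on thick replicate 1, which had the highest CPM of all 4 members in its breed. Without it they were −0.13, −0.29, −0.02 and −0.17. The labels of this library are in doubt, because the authors' deposited Large White comparison followed the tables exactly (r = −1 across sequences, with thin minus thick as its sign) only with thick replicate 1 and thin replicate 1 exchanged, and with r = −0.653 as labelled. Exchanged, the differences were −0.62, −0.65, −0.41 and −0.22, and without both libraries that of miR-143-3p was −0.09. edgeR called 0 of 170 names as labelled, with 2 (1.18%) at an unadjusted p under 0.05, and DESeq2 called 0.

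In Hampshire both thin libraries were at 0 for miR-145, as were 2 of the 5 thick ones, so no fold is given for its arms. edgeR did not call either arm (adjusted p = 0.894 for both), while DESeq2 called miR-145-5p (adjusted p = 2.87e-08). Of 5391 Hampshire sequences in the authors' deposited table, 1 passed (0.0185%). It was the most abundant sequence of miR-145-5p, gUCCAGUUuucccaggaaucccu, with a log2 fold change of −26.2, thin minus thick. Over all breeds the miR-143-3p difference was −0.16 ± 0.26 (SE; edgeR adjusted p = 0.996), and edgeR called 0 of 182 names, with 3 (1.65%) at an unadjusted p under 0.05 and 1 (0.549%) by DESeq2. An interaction test, of breed with fat class, gave an adjusted p of 0.593 for both miR-145 arms with edgeR and 0.0269 with DESeq2, whose 2 calls among 182 names (1.1%) were these arms; edgeR called 0, with 10 (5.49%) at an unadjusted p under 0.05.

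Between breeds, both miR-145 arms were called lower in Hampshire by edgeR, and these calls rest on the 4 libraries at 0. Whether those zeros are measured levels or were introduced when the tables were made was not tested. edgeR called 28 of 182 names against Large White (15.4%) and 32 against Pietrain (17.6%), of which 13 each were lower in Hampshire (7.14%). Both arms were among them in both comparisons, with adjusted p = 0.0055 and 0.00561 against Large White for 5p and 3p, and 0.00365 and 0.0049 against Pietrain. Without Hampshire thin replicate 2 the values against Large White were 0.0544 and 0.0582. With limma-voom none of the 4 passed (adjusted p = 0.305 and 0.0938 against Large White, 0.333 and 0.0927 against Pietrain). The 4 libraries at 0 enter these fits, so the fitted values depend on the prior count and are not read as folds. In thick fat alone, without the libraries at 0, miR-145-5p was lower in Hampshire by a log2 difference of −1.10 against Large White (adjusted p = 0.121) and −1.06 against Pietrain (adjusted p = 0.115). For miR-145-3p the values were −0.44 (adjusted p = 0.569) and −0.33 (adjusted p = 0.7), and its 3 Hampshire levels of 194, 152 and 211 CPM lay within the range of the other breeds, 135 to 408. Large White thick replicate 1, a library of doubtful label, was kept in these fits. It held 10103 CPM of miR-145-5p, against 3695, 4974 and 4322 in the other thick libraries of its breed. edgeR called 16 (9.41%) and 17 (10%) of 170 names in these reduced fits. Thin fat alone allows no such comparison, since both Hampshire thin libraries were at 0.

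No difference of miR-143-3p between breeds passed over all 22 libraries. The log2 difference of Hampshire was 0.51 ± 0.30 against Large White (adjusted p = 0.257) and 0.27 ± 0.31 against Pietrain (SE; edgeR adjusted p = 0.547). Without Large White thick replicate 1 the first was 0.75 with an adjusted p of 0.0298, and without both libraries of doubtful label 0.77 with an adjusted p of 0.0386. In thick fat alone it was −0.18, and −0.63 without the libraries at 0, so its sign follows which libraries are kept. Pietrain and Large White differed by 0.24 ± 0.29 for miR-143-3p and 0.15 ± 0.98 for miR-145-5p (SE, edgeR adjusted p = 0.972 and 0.9999). For miR-145-5p the SE of the fat difference was only 0.26 within Pietrain and 0.31 within Large White. The fit over all 22 libraries also held the 4 Hampshire libraries with miR-145 at 0. The part of those zeros in the SE of 0.98 for Pietrain against Large White was not tested. In that comparison edgeR called 0 of 182 names, with 14 (7.69%) at an unadjusted p under 0.05, and DESeq2 called 4 (2.2%).

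Among the stromal miRNAs, 6 were tested between breeds and 2 were lower in Hampshire against both breeds, miR-140-3p and miR-152, beside 7.14% of all names lower in each comparison. miR-140-3p averaged 2540 ± 406 CPM (SD, n = 7) in Hampshire, 3964 ± 499 (n = 8) in Large White and 5351 ± 1449 (n = 7) in Pietrain, and miR-152 averaged 4793 ± 1172, 7457 ± 928 and 7414 ± 1541. The other arm of the first hairpin, miR-140-5p, was not called and had its highest mean in Hampshire, at 329 ± 91, 274 ± 38 and 261 ± 15 CPM in the same order. The median log2 difference of the 6 was 0.29 against Large White and 0.32 against Pietrain, beside −0.03 and −0.05 over all names. These medians leave out miR-214-3p and miR-214-5p, which were at 0 in Hampshire and were not tested between breeds. They also include zeros: miR-199ab-3p and miR-199b-5p were at 0 in Pietrain thick replicates 1, 2 and 4 and Large White thick replicate 3. The same 2 names were at 0 in Large White thin replicates 2 and 3 and Hampshire thick replicate 3. miR-21 was at 0 in Large White thick replicate 3. The part of these zeros in the medians was not tested. miR-214-3p averaged 1037 ± 194 CPM (SD, n = 8) in Large White and 1020 ± 250 (n = 7) in Pietrain. Of 10 miRNAs linked to fat cells or their formation, 2 were higher and 2 lower in Hampshire against each breed: miR-148a-3p and miR-455-5p were higher, and miR-103 and miR-365-3p lower, where 15.4% and 17.6% of all names were called in either direction. Of 7 linked to its repression, miR-27a was higher. No endothelial, leukocyte, red blood cell or liver name was called in any comparison, and of the 4 skeletal muscle names miR-499-5p was higher in Hampshire against Pietrain.

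The miR-143-3p reads differed between breeds in length at the 3′ end. The 2 leading forms share their first 21 bases and differ by 1 base at the 3′ end, and so do not differ in the seed. The 22 nt form ending in u took 22.8% of all miR-143-3p reads, and 22 nt forms ending in g, c and a took 3.67%, 3.60% and 3.41%. Whether the last base of these forms comes from the hairpin or was added to it later was not tested.
miR-143-3p, 21 nt: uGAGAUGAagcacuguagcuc
miR-143-3p, 22 nt: uGAGAUGAagcacuguagcucu
miR-143-3p, 20 nt: uGAGAUGAagcacuguagcu
Mean read length of miR-143-3p was 21.20 ± 0.04 nt (SD, n = 7) in Hampshire, 21.38 ± 0.03 (n = 8) in Large White and 21.38 ± 0.04 (n = 7) in Pietrain. The highest Hampshire library, at 21.25 nt, lay below the lowest of the others, at 21.32. The difference passed in both comparisons (exact permutation test within fat classes, p = 0.000529 and 0.000794, the smallest the design allows, adjusted p = 0.0143 for both over 36 tests). It was shared with many miRNAs: 93 of 108 names with reads in every library were shorter on average in Hampshire, with a median difference of −0.08 nt, and in 15 (13.9%) every Hampshire library was below every other. For miR-143-3p the difference was −0.179 nt, rank 21 of the 108.

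The 22 nt form was read 0.467 ± 0.075 times (SD, n = 7) for each read of the 21 nt form in Hampshire, 0.731 ± 0.069 (n = 8) in Large White and 0.770 ± 0.102 (n = 7) in Pietrain. The Hampshire libraries ran from 0.365 to 0.555 and the others from 0.611 to 0.873, with no overlap. The 3 Hampshire libraries with miR-145 reads, at 0.410, 0.445 and 0.421, lay among the 4 without, at 0.365, 0.555, 0.543 and 0.529. The 21 nt form itself took 38.9% ± 2.60 of miR-143-3p reads in Hampshire (SD, n = 7), 33.8% ± 1.71 in Large White (n = 8) and 33.4% ± 2.31 in Pietrain (n = 7) (exact permutation test, adjusted p = 0.019 and 0.0214). Without Hampshire thin replicate 1 these adjusted p rose to 0.0914 and 0.0893. Against Pietrain the call was also lost without any 1 of Pietrain thick replicates 3 and 4 and the 3 thin replicates. The 20 nt form took 10.5% of reads in Hampshire, 7.81% in Large White and 8.33% in Pietrain. The labels do not say whether the breeds' libraries were cut from the same gel, and a difference in size selection between breeds cannot be told apart from one between animals.

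**Figure D3:**
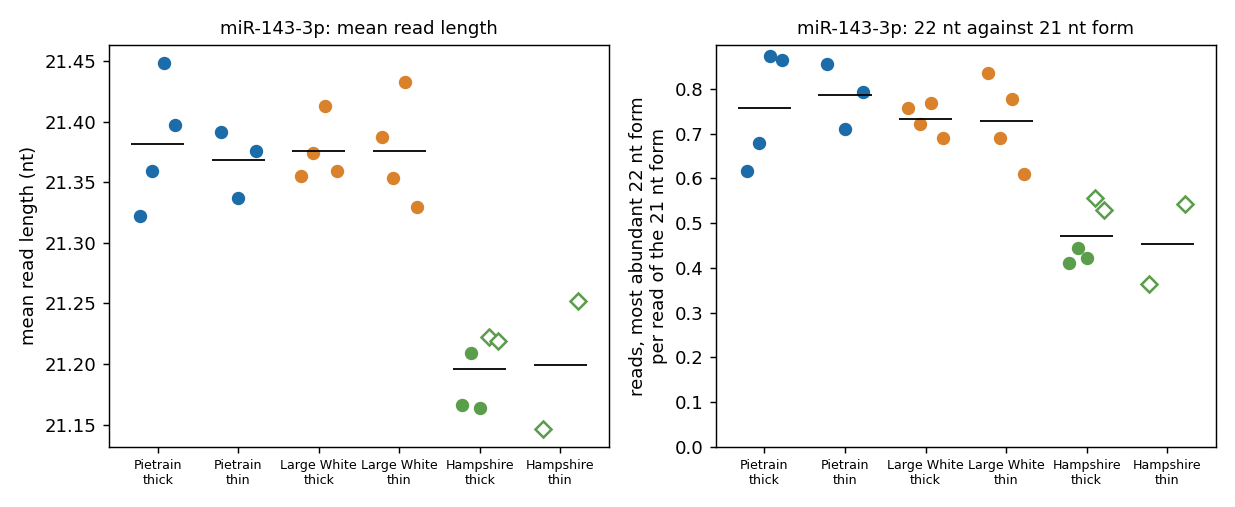
miR-143-3p in each library by breed and fat class: mean read length in nt (left, axis not from 0) and reads of the 22 nt form per read of the 21 nt form (right, axis from 0); black bars are group means and open diamonds the libraries with miR-145 at 0. All 7 Hampshire libraries, at 21.15 to 21.25 nt and ratios of 0.365 to 0.555, lie below the other 15.

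At their 5′ ends miR-143-3p and miR-145-5p were uniform. The same start was used by 97.4% to 97.5% of miR-143-3p reads in the breed means and by 98.8% to 99.2% of miR-145-5p reads. miR-145-3p was read from 2 starts 1 base apart, which gives it 2 seeds.
miR-145-3p, first start: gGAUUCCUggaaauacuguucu
miR-145-3p, later start: gAUUCCUGgaaauacuguucuu
The later start made up 48.9% ± 2.41 of miR-145-3p reads in Hampshire (SD, n = 3), 39.8% ± 5.84 in Large White (n = 8) and 38.1% ± 3.70 in Pietrain (n = 7). The 3 Hampshire libraries, at 48.7%, 51.5% and 46.7%, lay above all others, of which the highest was 45.7%, but they rest on 110, 35 and 246 reads of that form. This order was noticed in the values and was not tested.

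The 5p arm of miR-145 outnumbered its 3p arm by a log2 ratio of 3.94 ± 0.31 (SD, n = 3) in Hampshire, 4.53 ± 0.23 (n = 8) in Large White and 4.73 ± 0.32 (n = 7) in Pietrain. In thick fat as labelled, the class in which all breeds had reads, every Hampshire library was below every library of each other breed (exact permutation p = 0.0286 for both, the smallest possible, adjusted p = 0.114). The values were 3.85, 4.28 and 3.69 in Hampshire against 4.50 to 4.64 in Large White and 4.51 to 5.07 in Pietrain. The share of other miRNAs whose 2 arms show this order was not counted. Large White thin replicate 1, 1 of the 2 libraries of doubtful label, was at 4.06, below Hampshire thick replicate 2, so with those labels exchanged the order against Large White would not hold.

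**Figure D4:**
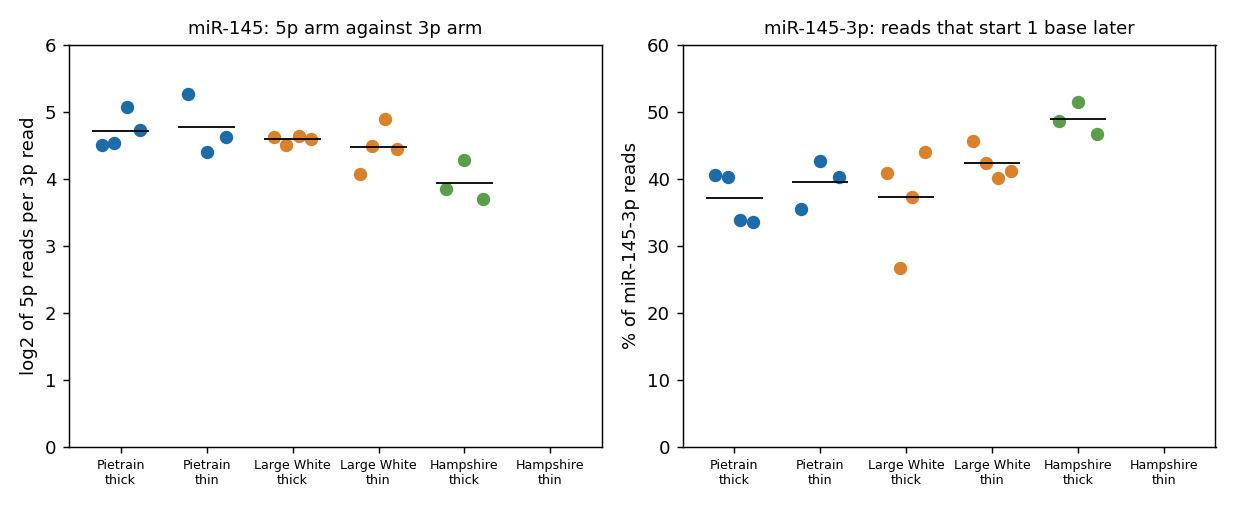
miR-145 in the 18 libraries with reads, by breed and fat class: log2 of 5p reads per 3p read (left) and percent of miR-145-3p reads that start 1 base later (right), both axes from 0; black bars are group means. The 3 Hampshire libraries have the lowest arm ratios in thick fat as labelled, 3.69 to 4.28, and the highest shares of the later start, 46.7% to 51.5%.

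Single-base changes at the first base set Pietrain apart. Positions are counted from 1 at the 5′ end, and the base of the most abundant sequence is written first. These changes lie outside the seed.
miR-145-5p, most abundant: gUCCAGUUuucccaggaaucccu
miR-145-5p, G1U: uUCCAGUUuucccaggaaucccu
miR-143-3p, U1G: gGAGAUGAagcacuguagcucu
miR-143-3p, G10U: uGAGAUGAaucacuguagcucu
G1U made up 6.64%, 6.59%, 6.22% and 6.71% of miR-145-5p reads of at least 20 nt in Pietrain thick fat and 6.48%, 6.10% and 6.32% in thin fat. In the 11 other libraries with miR-145-5p it was at 0. The same change, G1U, made up 3.61% to 5.31% of miR-143-5p reads in the 7 Pietrain libraries and was at 0 in all 15 others. It rested on only 9 and 7 reads in Pietrain thick replicates 3 and 4. The 15 others held 144 to 741 reads of miR-143-5p, and a 0 can stand for up to 5 reads of each sequence.

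Changed first bases were more frequent in Pietrain for many miRNAs. Among 71 names with at least 100 reads in each of the 18 libraries, 23 (32.4%) had a higher share in every Pietrain library than in every other. The median share over names was 0.405% in Pietrain, against 0.0574% for Large White and 0.0433% for Hampshire. Only 2 of the 71 names begin with G, miR-145-5p and miR-143-5p, and they had the highest shares in Pietrain. miR-145-3p, which begins with G but has too few reads for that count, had G1U at 2.58%, 1.91% and 1.46% in 3 Pietrain libraries and at 0 in the other 4. These shares rest on 24, 15 and 7 reads. The other 4 libraries had only 137 to 301 reads of miR-145-3p. A 0 can stand for up to 5 reads of each sequence, so their zeros do not show that G1U was absent. The most abundant miR-145-5p sequence was thereby a smaller part of its reads in Pietrain than in Large White, at 58.4% ± 1.45 (SD, n = 7) against 62.5% ± 2.59 (n = 8) (exact permutation test, adjusted p = 0.0411, and 0.135 with medians). Leaving out 1 library lost this call in 15 cases, with an adjusted p of up to 0.0823. When reads with a changed first base were left out, an alternative chosen after seeing the data, the shares were 62.7% and 62.6% (adjusted p = 0.986).

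In miR-143-3p the first base differed between Pietrain fat classes too, in both directions. U1G made up 0.736%, 0.746%, 0.856% and 0.685% of its reads in Pietrain thick fat and 0.175%, 0.284% and 0.213% in thin fat, and at most 0.0285% elsewhere. Thick and thin Pietrain fat did not overlap. U1C and U1A had the opposite order, with U1C at 0.262% to 0.290% in thick and 0.369% to 0.430% in thin fat, and U1A at 0.0552% to 0.0905% in thick and 0.158% to 0.191% in thin fat. A change at base 10 was also higher in thin fat: G10U was at 0.151%, 0.157% and 0.175% in Pietrain thin fat, at most 0.0104% in Pietrain thick fat and at most 0.0188% in the other breeds. In all 3 thin libraries it rested on 168 to 339 reads. How many other base changes, or changes in other miRNAs, split the Pietrain fat classes in this way was not counted. The orders above are therefore not shown to be particular to miR-143-3p.

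**Figure D5:**
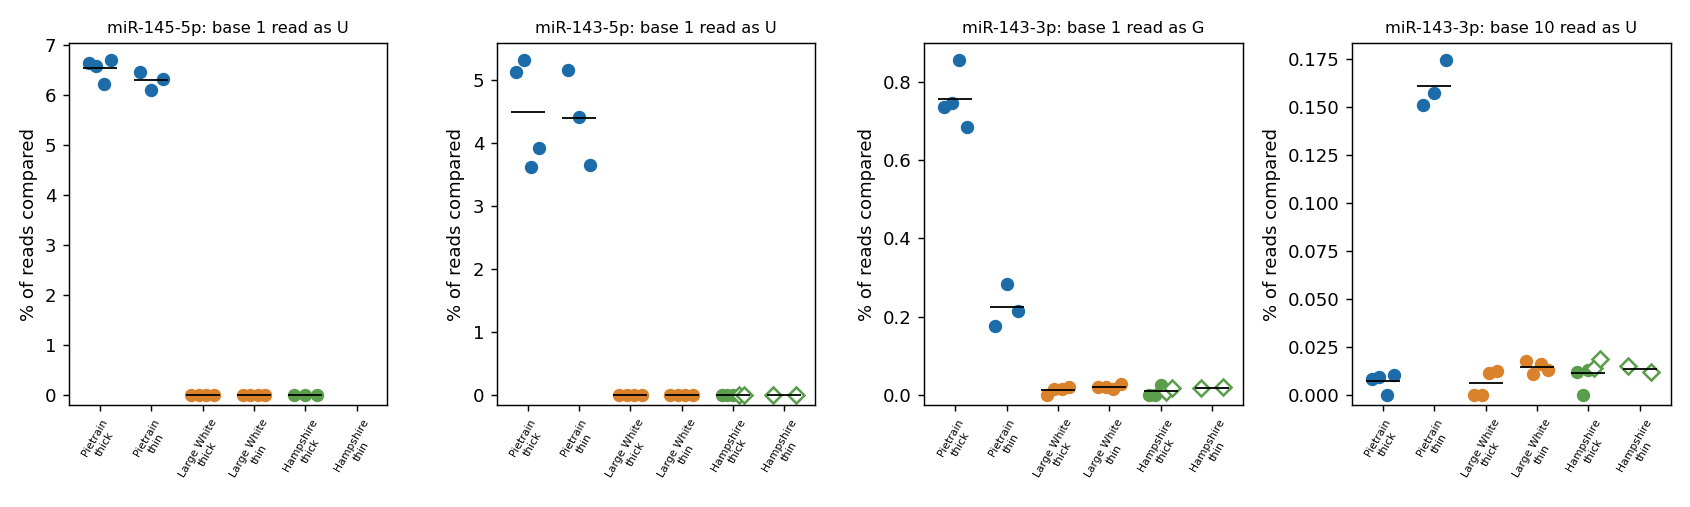
Percent of reads of at least 20 nt with a single changed base, by breed and fat class, for miR-145-5p and miR-143-5p at base 1 and miR-143-3p at bases 1 and 10; black bars are group means, open diamonds the libraries with miR-145 at 0, and each panel has its own scale. The first panels show 6.10% to 6.71% and 3.61% to 5.31% in Pietrain and 0 elsewhere, and the last ones opposite orders of thick and thin Pietrain fat.

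The authors' deposited Pietrain table held 89 called sequences of 7039 (1.26%), of which 7 were among the 435 of miR-143-3p. The 2 with U1G were lower in thin fat, with deposited log2 fold changes, thin minus thick, of −1.68 and −1.74 (deposited adjusted p = 0.00483 and 0.000737). The other 5 carried G10U and were higher in thin fat, with deposited log2 fold changes of 3.27 to 7.41 (deposited SE 0.64 to 1.79). In Pietrain thick replicates 1 to 4, G10U rested on 33, 30, 0 and 6 reads in all. A 0 can stand for up to 5 reads of each sequence, so the size of these folds is uncertain. The most abundant miR-143-3p sequence itself had a deposited value of −0.09 there (deposited adjusted p = 1). No sequence of miR-145-5p, miR-145-3p or miR-143-5p passed in Pietrain, and none of the Large White sequences did, in the authors' deposited tables. Which libraries of a breed shared a sequencing lane is not given in the labels, and the part of a lane or batch in these base changes was not tested.

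Of 31 single-base changes of miR-143-3p at a mean of at least 0.01% over libraries, 4 had all libraries of 1 breed apart from all others, an order that was noticed in the values and not tested. In Pietrain these were U1G and A9C, the latter at 0.0190% to 0.0515% against at most 0.0150% elsewhere. In Hampshire they were U20A, at 1.22% to 1.52% against at most 1.03%, and U20C, at 2.05% to 2.27% against at most 1.88%. Base 20 lies next to the 3′ end of the 21 nt form, where the breeds also differed in length. A9G, the most frequent A-to-G change, overlapped between breeds, with 0.517% ± 0.028 of reads in Hampshire (SD, n = 7), 0.481% ± 0.020 in Large White (n = 8) and 0.480% ± 0.031 in Pietrain (n = 7). A8G, the last base of the seed, was in 0.380%, 0.396% and 0.398%, and overlapped too.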

How the data were processed

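The authors deposited, per breed, a table of raw read counts per sequence with its miRNA name; a pig small RNA library was made from each sample with a NEBNext kit, per the labels' protocols. Per the submitters' processing notes, bcl2fastq, FastQC, DESeq2 and the assembly Sscrofa10.2 were used; the aligner and annotation are not given in the sources used here. The authors' deposited comparisons hold a mean signal, a log2 fold change with its error, a test score and p-values, raw and adjusted, per the file headers.

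Counts were summed per name. Sequences without a name held 0.0480% of reads and were left out. Names were tested by the quasi-likelihood method of edgeR 4.0.16 (limma 3.58.1, R 4.3.3) with TMM scaling, a low-count filter per group, and Benjamini-Hochberg adjustment at 0.05, within breeds and over all 22 libraries; breed contrasts gave both fat classes equal weight and used names present in all tables. DESeq2 1.42.0 was an alternative. Standard errors are the log2 difference divided by the square root of F, and intervals are 95%. Per-library measures (lengths, shares and ratios) were tested with exact two-sided permutation tests within the other factor, adjusted over 36 tests. Replicates were numbered in accession order. Reads carry no molecular identifiers, so they are not independent molecules. Tests were checked on simulated data. The named miRNAs were the members, the 5 most like miR-143-3p and miR-145-5p, and called names of the marker lists. miR-205 and miR-140-5p were added after their values were seen. The members and lists were chosen with earlier results of these data known. The genome coordinates of the members are not reported here, because the reference table is of another assembly.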

Additional observations from a re-analysis of the deposited data

Results flagged for a closer look

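Among 47 sets of 4 to 10 libraries tested, 3 held a library far from the others, where chance gives about 1 in 20. All 3 were Large White thick replicate 1 against the 3 other thick libraries of its breed. It had 192702.7 CPM of miR-143-3p where the others had 59851 to 67054. It had 677.6 CPM of miR-143-5p where the others had 200 to 271, and 408.4 CPM of miR-145-3p where the others had 164 to 199. It was also the shallowest Large White library and 1 of the pair whose fat labels disagree with the authors' deposited comparison, and the part of either in its levels was not tested.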

How the results depend on the processing

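No paired analysis was possible because no label ties a library of one group to one of another, and replicates were numbered in accession order. Values are log2 differences, thick minus thin or first breed minus second, or counts of names past the threshold. The planned share of reads with 3′ bases outside the hairpin was not run. Where no cause is shown by the setting itself, the cause was not tested. Depth limits the rarest members: miR-145-3p rests on 68 reads in Hampshire thick replicate 2, and 0 can stand for up to 5 reads of each sequence. The exact tests of 3 libraries against 4 cannot give a p below 0.0286.

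The Pietrain fat difference of miR-143-3p, near 0, became 0.0110 with upper quartile scaling, 0.00857 with library totals and 0.00375 with the most abundant sequence only. With limma-voom those of miR-143-5p, miR-145-5p and miR-145-3p became −0.0508, −0.0887 and −0.118. Leaving out 1 library gave −0.30 to 0.30 for miR-143-3p, −0.16 to 0.38 for miR-143-5p, −0.17 to 0.20 for miR-145-5p and −0.22 to 0.41 for miR-145-3p.

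In Large White, without thick 1 and thin 1, the differences were −0.0901 for miR-143-3p and −0.25 for miR-143-5p. With the pair exchanged they were −0.62, −0.65, −0.41 and −0.22 for miR-143-3p, miR-143-5p, miR-145-5p and miR-145-3p, and limma-voom gave −0.0363 for miR-143-5p. Leaving out 1 library gave −0.13 to 0.70, −0.29 to 0.55, −0.0222 to 0.62 and −0.17 to 0.46 for the same 4 members. Over all breeds miR-143-3p ran from −0.39 to 0.0327 when 1 library was left out, and it turned positive without Hampshire thin replicate 1.

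Counts of calls in comparisons of fat class, 0 with edgeR, were 1 in Pietrain, 3 in Hampshire, 1 over all breeds and 2 for the interaction with DESeq2, and 1 over all breeds with upper quartile or RLE scaling. Leaving out 1 library gave 0 to 2 in Pietrain, 0 to 1 in Large White, 0 to 1 in Hampshire, 0 to 1 over all breeds and 0 to 2 for the interaction. Between Pietrain and Large White the count was 4 with DESeq2 and 0 to 1 with a library left out. Against Large White, Hampshire had 48 calls with DESeq2, 9 in thick fat only and 16 there without the libraries at 0. Against Pietrain it had 12 and 17 in those reduced fits.

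The values of the miR-145 arms in fits with libraries at 0 depend on the prior count, and their size is no fold. The lower level in Hampshire did not pass with limma-voom, at −8.87 and −5.56 for 5p and 3p against Large White and −9.09 and −5.74 against Pietrain. In thick fat only the values were −1.72 and −1.07 against Large White and −1.74 and −1.01 against Pietrain. Without the libraries at 0 they were −1.10 and −0.44, and −1.06 and −0.33. With all breeds and both fat classes but 1 library left out, the fitted values ran from −9.01 to −8.61 and from −6.41 to −6.08 against Large White, where the calls were lost without Hampshire thin replicate 2, and no call was lost against Pietrain. The miR-143-3p difference turned negative in thick fat only, at −0.18 against Large White and −0.22 against Pietrain, and without the libraries at 0 at −0.63 and −0.61. Against Pietrain it was −0.0324 with upper quartile scaling and −0.0172 to 0.48 with a library left out, negative without Hampshire thin replicate 1. Pietrain minus Large White in those thick libraries was −0.0257 for miR-143-3p and −0.0446 for miR-145-5p.

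Of the per-library measures, 5 passed, and 2 to 5 did with a library left out. The share of the 21 nt form of miR-143-3p was higher in Hampshire by 3.79 to 6.84 percentage points against Large White and 4.40 to 7.45 against Pietrain. The share of the most abundant miR-145-5p sequence differed between Pietrain and Large White by −5.02 to −3.78 points with a library left out, −4.28 with medians and −0.081 without reads with a changed first base, an alternative chosen after seeing the data.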
